A study of Homo sapiens with 30 samples.

Results

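SUM190 is an established human cell line of inflammatory breast cancer, an aggressive carcinoma of the breast, and its doxorubicin-resistant derivative was compared here at 1 µM and at 350 nM doxorubicin. The comparison covers 4 of the 30 libraries of the series, 2 at each dose, chosen by their labels, and 12743 of 20114 genes, those with at least 1 CPM in at least 2 libraries. CPM is a gene's read count scaled by the size of its library. The 1 µM libraries and the 350 nM libraries came from the same resistant line, and every culture received its treatment 24 h after seeding and kept it for 72 h. Resistant cells in DMSO, the vehicle, and parental cells at 1 µM or at 65 nM doxorubicin, each with 2 libraries, are used as the nearest other groups. The labels do not say how the resistant line was made, whether it is 1 clone, or whether it was kept in drug before seeding. They do not say either that replicates are separate cultures, so the p-values measure only the spread between libraries, which may be technical.

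Doxorubicin is an anthracycline that inserts into DNA and traps topoisomerase II on it, which leaves DNA breaks. Cells answer such breaks through p53, which can halt the cell cycle, and DNA fragments that reach the cytosol can switch on interferon genes. Resistant cells are known to survive by pumping the drug out, by reducing it chemically or by tolerating the damage. The series concerns JAK-STAT signalling in resistance, and this comparison asks what the resistant cells change when the dose goes beyond the 350 nM one.

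Between 23656973 and 30990694 reads fell in genes in each of the 4 libraries, and the limit that a count of 0 leaves, 3 reads, stood at 0.0947 to 0.133 CPM in them, for counting error only. The epithelial identity of the cells was present at both doses. ERBB2, the amplified receptor of this line, had 3068 and 3154 CPM at 1 µM, against 3382 and 2989 CPM at 350 nM, EPCAM had 401 and 417 CPM at 1 µM, against 391 and 441 CPM at 350 nM, and the luminal keratin KRT8 had 736 and 748 CPM at 1 µM, against 733 and 595 CPM at 350 nM. Among stromal, endothelial and immune markers, 5 of 12 listed genes passed the filter, and VWF and PTPRC were called higher at 1 µM. VWF, von Willebrand factor, had 3.94 and 3.94 CPM at 1 µM, against 1.72 and 1.504 CPM at 350 nM (0.92 ± 0.13), the same log2 difference as without 1 µM replicate 1. COL3A1, PDGFRB, DCN, CD3E and LYZ were among those that did not pass the filter.

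One 1 µM library held transcripts that the other libraries of the line nearly lacked. Replicate 1 had 114 genes more than 4-fold above replicate 2 with over 1.5 CPM, and replicate 2 had 0 genes in the other direction, while both 350 nM libraries had 0 in either direction. These genes included markers of B lymphocytes and plasma cells. IGJ, the joining chain of secreted antibodies, had 218 and 0.155 CPM at 1 µM, against 0 and 0 CPM at 350 nM. IRF4, a transcription factor of plasma cells, had 17.6 and 0 CPM at 1 µM, against 0 and 0.0442 CPM at 350 nM. Of 23 such markers, listed after these values were seen, 21 were higher in 1 µM replicate 1 than in any of the other 5 libraries of the line. Their summed level was 315 and 5.22 CPM at 1 µM, against 2.85 and 3.58 CPM at 350 nM. MS4A1, a defining gene of B cells, was at 0 reads in all 6 of these libraries. Of the 114 genes, 53 passed the filter and 18 of these were among the genes called higher at 1 µM. PTPRC, the pan-leukocyte marker CD45, had 5.96 and 0.232 CPM at 1 µM, against 0.262 and 0.0885 CPM at 350 nM, with a log2 difference of 1.32 ± 0.43 that was 0.07 without that library. No call remained for PTPRC without 1 µM replicate 1 or 350 nM replicate 1 or 350 nM replicate 2 (0.07 to 1.43, adjusted p 0.0904 to 0.848). Where leaving out that library ended the call of a gene named below, this is said beside it.

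**Figure D1:**
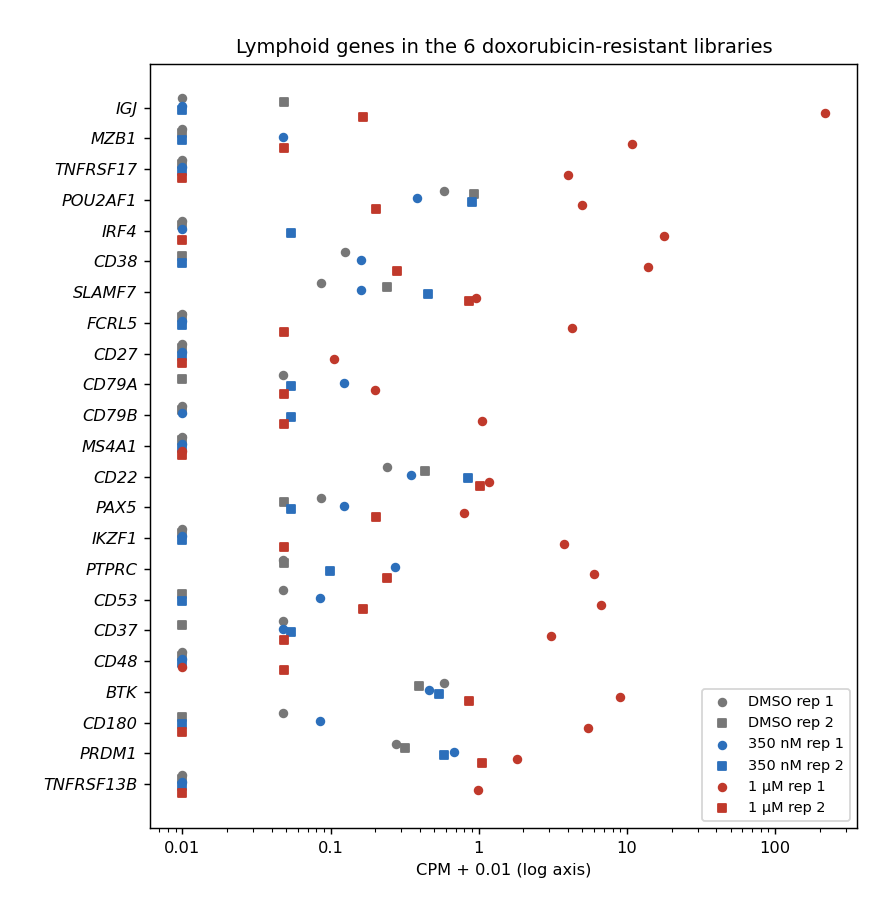
Levels of 23 lymphoid genes, as CPM + 0.01 on a log axis, in the 6 libraries of doxorubicin-resistant cells, with 1 point per library. 1 µM replicate 1 is highest for 21 of the 23 genes, and IGJ reaches 218 CPM there.

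Across all genes the resistant cells differed moderately between the doses. limma called 2743 genes, or 21.5% of those tested, at a Benjamini-Hochberg adjusted p under 0.05, with 1270 higher (9.97%) and 1473 lower (11.6%) at 1 µM. The median size of the log2 difference was 0.16 over all tested genes and 0.43 over the called ones. A log2 difference of at least 1 was found for 52 higher (0.408%) and 41 lower genes (0.322%). Every log2 difference here is taken on log2(CPM + 1), so it understates the change of genes with low CPM, and values after ± are standard errors. Leaving out 1 µM replicate 1, 1 µM replicate 2, 350 nM replicate 1 or 350 nM replicate 2 gave 1542, 1573, 2047 and 1790 called genes, in that order. The same order of the 4 libraries is used for every set of leave-one-out counts below. These fits call fewer genes in general, so a lower list count in them is not by itself a result about the list. A fit corrected for GC content and transcript length called 4929 genes, 2211 higher and 2718 lower, and fits of both doses alone and of the resistant libraries alone called 2208 and 3095. Counts of these 3 fits are given beside a list where they moved its count by over 1.5 times and at least 2 genes. In such bulk RNA, fewer cells that express a gene and less RNA per cell cannot be told apart.

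The genes that fell furthest encode secreted mucins, a fibrinogen chain and glucuronidating enzymes. MUC5B, a gel-forming mucin, had 10.3 and 12.02 CPM at 1 µM, against 173 and 110.3 CPM at 350 nM, a log2 difference of -3.52 ± 0.30 with an adjusted p of 2.70e-07. Both 1 µM libraries lay far below both 350 nM libraries, which themselves differed from each other. FCGBP, a mucin-binding secreted protein, had 9.28 and 10.7 CPM at 1 µM, against 41.05 and 32.5 CPM at 350 nM (-1.77 ± 0.17 on the log2 scale), and the mucin MUC19 had 0.883 and 1.35 CPM at 1 µM, against 7.49 and 5.18 CPM at 350 nM (-1.78 ± 0.26). FGB, the beta chain of fibrinogen, had 269 and 263 CPM at 1 µM, against 886 and 934 CPM at 350 nM, a log2 difference of -1.77 ± 0.12 with an adjusted p of 4.39e-10. Its replicates were close and its doses well apart. UGT2B11 and UGT2B28 belong to the enzymes that attach glucuronic acid to steroids and other lipids. UGT2B11 had 24.1 and 21.7 CPM at 1 µM, against 89.03 and 104 CPM at 350 nM (-2.02 ± 0.13) and UGT2B28 had 17.95 and 16.6 CPM at 1 µM, against 59.7 and 66.9 CPM at 350 nM (-1.81 ± 0.12). The near-identical members of this family can share reads, so the split between them is uncertain. SLC19A1, the reduced folate carrier, had 8.05 and 7.38 CPM at 1 µM, against 22.6 and 19.4 CPM at 350 nM (-1.33 ± 0.12). NOX5, an NADPH oxidase that makes superoxide, had 69.2 and 71.1 CPM at 1 µM, against 193 and 177 CPM at 350 nM (-1.38 ± 0.09), and LPCAT1, which remodels phosphatidylcholine, had 90.01 and 89.4 CPM at 1 µM, against 207 and 207 CPM at 350 nM (-1.20 ± 0.07). The remaining genes of the 15 that fell furthest were ENAM, SCGB1D2, PCDH20, HEPACAM2, SERHL2 and MT1X, with log2 differences between -2.08 ± 0.16 and -1.27 ± 0.11.

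The genes that rose furthest were led by GPNMB, a glycoprotein of lysosomes and melanosomes, with 12.2 and 12.4 CPM at 1 µM, against 3.11 and 2.39 CPM at 350 nM, a log2 difference of 1.83 ± 0.15 and an adjusted p of 1.02e-08. CYP1A1, the oxidising enzyme that the aryl hydrocarbon receptor induces, had 95.9 and 98.6 CPM at 1 µM, against 33.6 and 30.4 CPM at 350 nM, a log2 difference of 1.58 ± 0.14 with an adjusted p of 3.88e-08. The replicates of both genes lay close together at each dose. HDAC9, a histone deacetylase, had 27.5 and 24.6 CPM at 1 µM, against 7.304 and 10.8 CPM at 350 nM (1.45 ± 0.21), and IL7R, the interleukin-7 receptor, had 8.05 and 8.08 CPM at 1 µM, against 2.51 and 2.61 CPM at 350 nM (1.35 ± 0.14). PPP1R15A, or GADD34, which brings the phosphatase that reverses the translational block of stressed cells, had 33.3 and 37.2 CPM at 1 µM, against 14.6 and 12.3 CPM at 350 nM (1.33 ± 0.16). ATF3, a stress-induced transcription factor, had 40.3 and 39.3 CPM at 1 µM, against 17.3 and 16.3 CPM at 350 nM (1.20 ± 0.12). TGM1, which crosslinks the cornified envelope of keratinocytes, had 5.3004 and 4.72 CPM at 1 µM, against 1.87 and 1.02 CPM at 350 nM (1.32 ± 0.18). GBP1, an interferon-induced GTPase, had 17.01 and 18.2 CPM at 1 µM, against 7.34 and 6.64 CPM at 350 nM (1.22 ± 0.12). The other 7 were COL16A1, NRK, NOV, ATP6V1C2, ARRDC4, HOPX and MAN1A1, with log2 differences between 1.22 ± 0.22 and 1.40 ± 0.18. All 30 of these genes stayed called in the same direction in every alternative computed, including without 1 µM replicate 1.

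**Figure D2:**
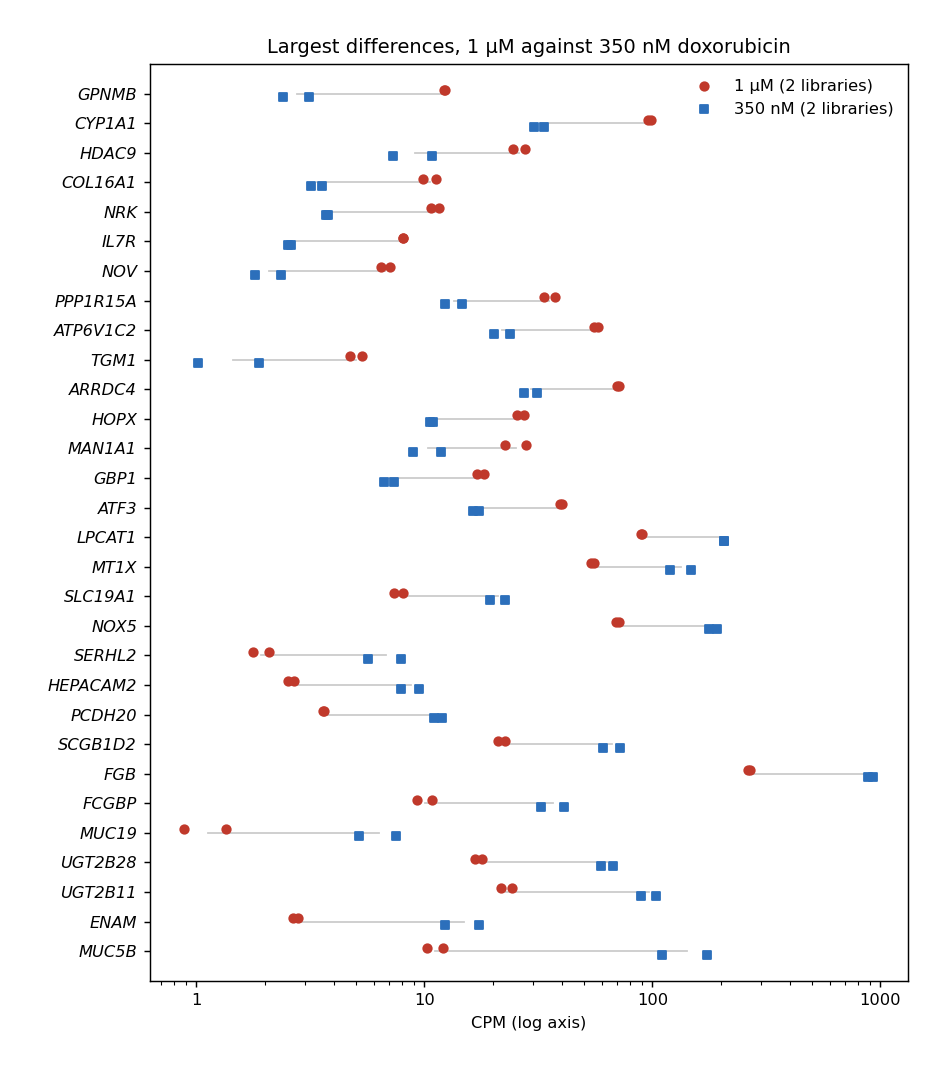
CPM per library on a log axis for the 15 genes that rose and the 15 that fell most at 1 µM (circles) against 350 nM doxorubicin (squares), with a line between the group means. The groups do not overlap for any gene, which the naming rule required, and MUC5B has the widest gap, with 10.3 and 12.02 CPM at 1 µM, against 173 and 110.3 CPM at 350 nM.

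Genes of protein folding in the endoplasmic reticulum fell together. Of 24 tested members of the list of chaperones and unfolded protein response genes, 16 fell and 1 rose, and the list median was -0.33 on the log2 scale, against -0.00 over all genes tested. XBP1, the transcription factor that drives much of this response, had 477 and 465 CPM at 1 µM, against 916 and 899.6 CPM at 350 nM, a log2 difference of -0.95 ± 0.06 with an adjusted p of 4.34e-10. HSPA5, or BiP, the main chaperone of the compartment, had 975 and 958 CPM at 1 µM, against 1446 and 1509 CPM at 350 nM (-0.61 ± 0.07). Both genes were nearly equal between replicates and well separated between doses. The disulfide isomerase PDIA4 had 208 and 189 CPM at 1 µM, against 358 and 322 CPM at 350 nM (-0.77 ± 0.09), and PDIA3, its relative in the calnexin cycle, had 718 and 727 CPM at 1 µM, against 1050.4 and 1103 CPM at 350 nM (-0.57 ± 0.07). HSP90B1, which folds secreted and membrane proteins, had 865 and 758 CPM at 1 µM, against 1057 and 1202 CPM at 350 nM (-0.48 ± 0.08). CRELD2, a secreted target of the response, had 24.1 and 21.8 CPM at 1 µM, against 40.6 and 34.3 CPM at 350 nM (-0.68 ± 0.11). CALR, PDIA6 and HERPUD1 also fell. The exception was ERN1, which encodes the sensor IRE1 that splices XBP1 mRNA, with 55.5 and 54.2 CPM at 1 µM, against 40.7 and 41.7 CPM at 350 nM (0.41 ± 0.07). EIF2AK3, the sensor PERK, had 71.7 and 71.5 CPM at 1 µM, against 84.9 and 96.7 CPM at 350 nM (-0.34 ± 0.09). The test was not passed by PDIA6 without 1 µM replicate 2 (-0.26, adjusted p 0.0512) and EIF2AK3 without 1 µM replicate 1 or 1 µM replicate 2 or 350 nM replicate 2 (-0.34 to -0.24, adjusted p 0.05996 to 0.142). The list had leave-one-out counts of 12, 9, 14 and 12 lower and 1, 1, 1 and 2 higher, and 13 of the 17 calls were kept without 1 µM replicate 1.

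The promoters of these genes are shown because a known element of the response can be read in them. The ER stress response element has the letters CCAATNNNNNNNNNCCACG, and it was searched on both strands in the RefSeq promoters of GRCh38.p14, which run from 250 bases before to 50 after the gene start. It was found in 0.0769% of all 35116 promoters and in 14 of 10352 tested genes with a promoter (0.135%). The element is named for this response, so its frequency in the list is not a result of these data. Among list members with a promoter in that set, 6 of 23 had it. Of these 6, 5 fell (HSPA5, HSP90B1, CALR, CRELD2 and XBP1) and CANX had 2155 and 2173 CPM at 1 µM, against 2168 and 2531 CPM at 350 nM (-0.11 ± 0.08) and did not pass the test. Of the 17 members without it, 10 fell and 1 rose. A match is a description of the letters, not of binding. Capitals mark the fixed letters of the element, which reads CGTGG and ATTGG where it lies on the other strand.
HSPA5 (chr9:125241294-125241593, minus strand): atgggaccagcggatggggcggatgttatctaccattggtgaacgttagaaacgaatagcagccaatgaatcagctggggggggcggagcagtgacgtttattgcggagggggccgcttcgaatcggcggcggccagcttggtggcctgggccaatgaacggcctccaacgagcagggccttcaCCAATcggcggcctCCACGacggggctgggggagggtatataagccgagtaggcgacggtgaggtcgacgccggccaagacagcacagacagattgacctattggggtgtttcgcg
HSP90B1 (chr12:103930160-103930459, plus strand): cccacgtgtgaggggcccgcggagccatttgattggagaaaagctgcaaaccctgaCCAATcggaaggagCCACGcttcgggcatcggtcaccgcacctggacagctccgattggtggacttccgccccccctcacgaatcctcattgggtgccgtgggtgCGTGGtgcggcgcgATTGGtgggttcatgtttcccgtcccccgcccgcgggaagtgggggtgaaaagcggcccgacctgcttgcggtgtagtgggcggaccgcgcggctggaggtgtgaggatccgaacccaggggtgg
CRELD2 (chr22:49918384-49918683, plus strand): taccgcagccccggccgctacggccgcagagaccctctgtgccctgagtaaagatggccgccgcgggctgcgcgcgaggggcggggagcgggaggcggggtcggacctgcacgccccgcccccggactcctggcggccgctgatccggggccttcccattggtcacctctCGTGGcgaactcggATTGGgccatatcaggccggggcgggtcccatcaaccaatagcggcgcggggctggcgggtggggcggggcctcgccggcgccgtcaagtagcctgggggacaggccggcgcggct
XBP1 (chr22:28800520-28800819, minus strand): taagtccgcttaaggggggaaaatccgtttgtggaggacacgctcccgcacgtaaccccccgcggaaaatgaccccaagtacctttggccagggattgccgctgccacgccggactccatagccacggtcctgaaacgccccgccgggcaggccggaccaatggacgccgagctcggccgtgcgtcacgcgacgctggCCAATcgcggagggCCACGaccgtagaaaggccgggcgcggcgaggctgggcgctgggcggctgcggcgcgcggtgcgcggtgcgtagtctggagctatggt
CANX (chr5:179698679-179698978, plus strand): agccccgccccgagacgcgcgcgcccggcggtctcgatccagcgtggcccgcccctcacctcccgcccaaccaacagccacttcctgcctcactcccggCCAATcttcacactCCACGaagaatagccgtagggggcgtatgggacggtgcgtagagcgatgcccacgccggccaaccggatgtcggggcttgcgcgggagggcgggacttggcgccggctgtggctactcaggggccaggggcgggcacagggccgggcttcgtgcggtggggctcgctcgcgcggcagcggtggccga

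Other stress programs did not move as one block. In the fit of all libraries 11.6% of all genes tested fell and 9.97% rose. These shares were 32.1% and 14.3% of the 28 integrated stress response genes, and 20.8% and 12.5% of the 24 heat shock proteins. The heat shock list had a median of -0.00 on the log2 scale. In the list of integrated stress response and amino acid supply genes, 9 of 28 tested members fell and 4 rose, with leave-one-out counts of 8, 8, 9 and 8 lower and 3, 3, 3 and 4 higher, and 14 lower and 5 higher in the corrected fit. The members that rose were PPP1R15A, DDIT3, ATF5 and CEBPG. DDIT3, or CHOP, a factor tied to cell death under stress, had 32.9 and 35.7 CPM at 1 µM, against 20.5 and 19.3 CPM at 350 nM (0.75 ± 0.11), and ATF5 had 52.6 and 52.998 CPM at 1 µM, against 31.2 and 29.7 CPM at 350 nM (0.77 ± 0.13). No call remained for CEBPG without 1 µM replicate 1 or 1 µM replicate 2 or 350 nM replicate 1 (0.16 to 0.26, adjusted p 0.129 to 0.289995). The members that fell included ATF4, the central factor of the response, with 194 and 193 CPM at 1 µM, against 255 and 240.5 CPM at 350 nM (-0.36 ± 0.08), and ASNS, asparagine synthetase, with 269 and 259 CPM at 1 µM, against 389 and 424 CPM at 350 nM (-0.62 ± 0.10). DDIT4, an inhibitor of mTORC1, had 134 and 137 CPM at 1 µM, against 275 and 237 CPM at 350 nM (-0.91 ± 0.09). Among 24 heat shock proteins of cytosol and mitochondria, 5 fell and 3 rose, with leave-one-out counts of 2, 3, 2 and 3 lower and 2, 2, 2 and 3 higher, and 7 lower and 8 higher in the corrected fit and 3 lower and 4 higher in the fit of both doses alone. HSPA8, the constitutive cytosolic HSP70, had 1479.8 and 1478 CPM at 1 µM, against 1999.5 and 1999 CPM at 350 nM (-0.43 ± 0.08), and HSPB8 had 47.8 and 47.6 CPM at 1 µM, against 34.6 and 35.4 CPM at 350 nM (0.44 ± 0.09).

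Enzymes that handle the drug and oxidants mostly fell where they changed, and the efflux transporters that passed the test went both ways. In the list of doxorubicin targets, carbonyl reductases and quinone reductases, 6 of 17 tested members fell and 0 rose, with leave-one-out counts of 4, 5, 3 and 6 lower. TOP2B, the topoisomerase II of non-dividing cells and a doxorubicin target, had 123 and 116 CPM at 1 µM, against 159 and 187 CPM at 350 nM (-0.53 ± 0.11). TOP2A, the form of dividing cells, had 395 and 401 CPM at 1 µM, against 377 and 445 CPM at 350 nM (-0.04 ± 0.12, adjusted p 0.854). AKR1C2, an aldo-keto reductase of steroids and carbonyl drugs, had 1750.5 and 1807 CPM at 1 µM, against 3068 and 3009 CPM at 350 nM, and its log2 difference was -0.77 ± 0.08. AKR1C1 had 659 and 667 CPM at 1 µM, against 1016 and 962 CPM at 350 nM (-0.58 ± 0.08). These are near-identical genes, so reads may be shared between them. NQO1, a quinone reductase, had 2458 and 2493 CPM at 1 µM, against 3017 and 2921 CPM at 350 nM (-0.26 ± 0.07). Among 21 NRF2 target enzymes, 8 fell and 1 rose, with leave-one-out counts of 6, 7, 7 and 5 lower and 0, 0, 0 and 0 higher. HMOX1, heme oxygenase, had 66.2 and 64.2 CPM at 1 µM, against 104 and 92.3 CPM at 350 nM (-0.58 ± 0.11), SLC7A11, the cystine importer, had 247 and 259 CPM at 1 µM, against 351 and 433 CPM at 350 nM (-0.62 ± 0.15), and GCLC, which starts glutathione synthesis, had 314 and 319.6 CPM at 1 µM, against 405 and 469 CPM at 350 nM (-0.46 ± 0.10). ABCC2 was the member that rose. Leaving out libraries ended the calls of ABCC2 without 1 µM replicate 1 or 1 µM replicate 2 or 350 nM replicate 1 or 350 nM replicate 2 (0.22 to 0.31, adjusted p 0.0761 to 0.221), NQO1 without 1 µM replicate 1 or 350 nM replicate 1 (-0.25 to -0.24, adjusted p 0.0587 to 0.0649) and SLC7A11 without 350 nM replicate 2 (-0.47, adjusted p 0.0766). Of 11 tested efflux transporters and vault genes, 2 rose and 1 fell, with leave-one-out counts of 1, 1, 1 and 1 higher and 1, 1, 1 and 1 lower. In the fit of all libraries the shares of this list that rose and fell were 18.2% and 9.09%, against 9.97% and 11.6% of all genes tested. ABCC1, or MRP1, a pump of doxorubicin, had 549 and 565 CPM at 1 µM, against 574 and 531 CPM at 350 nM (0.01 ± 0.09, adjusted p 0.945). ABCC5 had 44.5 and 44.6 CPM at 1 µM, against 27.6 and 27.9 CPM at 350 nM (0.67 ± 0.09), and ABCB6 had 24.5 and 25.7 CPM at 1 µM, against 39.5 and 37.7 CPM at 350 nM (-0.60 ± 0.09). ABCB1, the classical multidrug pump, was below the filter. Among 7 tested metallothioneins and zinc regulators 3 fell, MT1X and MT2A furthest, with leave-one-out counts of 2, 2, 2 and 3 lower and 0, 0, 0 and 1 higher. MT1X had 53.6 and 55.5 CPM at 1 µM, against 147 and 119.5 CPM at 350 nM and MT2A had 74.6 and 76.5 CPM at 1 µM, against 182 and 141 CPM at 350 nM, at log2 differences of -1.27 ± 0.11 and -1.07 ± 0.11.

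**Figure D3:**
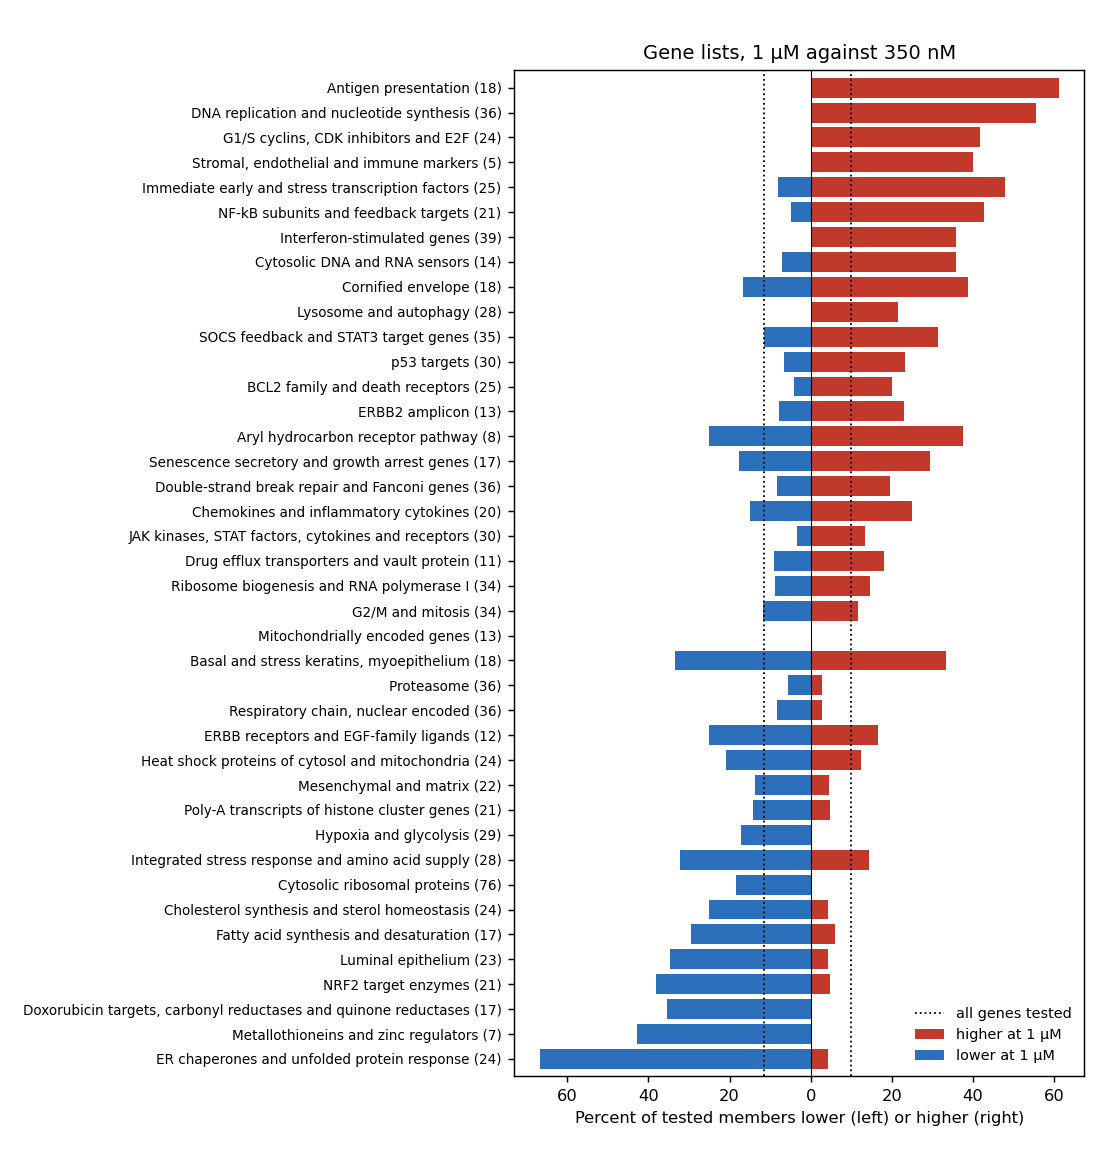
Percent of the tested members of each of 40 gene lists that were called higher (right) or lower (left) at 1 µM against 350 nM, with the number tested in brackets and dotted lines at 9.97% and 11.6%, the shares of all genes tested. Antigen presentation and DNA replication have the highest shares of genes that rose, and the endoplasmic reticulum list the highest share that fell. Without 1 µM replicate 1, the library with lymphoid transcripts, the list medians are 0.35 for antigen presentation and 0.31 for DNA replication. With it they are 0.48 and 0.28 on the log2 scale.

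Genes of DNA replication rose at the higher dose, while the shares of mitotic genes that rose and fell were near those of all genes tested. Of 36 tested members of the list of DNA replication and nucleotide synthesis, 20 rose and 0 fell, with a median of 0.28, and leave-one-out counts of 14, 11, 13 and 14 higher, and 23 higher and 2 lower in the corrected fit. RRM2, the regulated subunit of ribonucleotide reductase, had 1093 and 1116 CPM at 1 µM, against 643 and 719 CPM at 350 nM, a log2 difference of 0.70 ± 0.10 with an adjusted p of 3.94e-05. TYMS, thymidylate synthase, had 159 and 159 CPM at 1 µM, against 109 and 104 CPM at 350 nM (0.57 ± 0.07). Both enzymes supply deoxynucleotides. CDC6, which loads the replicative helicase, had 145 and 152 CPM at 1 µM, against 97.3 and 96.3 CPM at 350 nM (0.61 ± 0.10), and MCM3, a helicase subunit, had 308 and 316 CPM at 1 µM, against 235 and 219 CPM at 350 nM (0.46 ± 0.08). PCNA, the sliding clamp of polymerases, had 263 and 267 CPM at 1 µM, against 189 and 198 CPM at 350 nM (0.45 ± 0.11). Of 24 genes of the G1/S transition 10 rose and 0 fell, with leave-one-out counts of 8, 8, 9 and 8 higher. Both activators and inhibitors were among them. CCNE1 and CCNE2 encode cyclin E, and CCNE1 had 21.2 and 22.5 CPM at 1 µM, against 14.6 and 12.3 CPM at 350 nM (0.66 ± 0.13). CDC25A, which activates CDK2, had 49.9 and 49.8 CPM at 1 µM, against 30.3 and 32.8 CPM at 350 nM (0.65 ± 0.10), and E2F2 had 78.5 and 80.6 CPM at 1 µM, against 49.1 and 42.1 CPM at 350 nM (0.79 ± 0.10). CDKN2B, the inhibitor p15, had 64.05 and 70.5 CPM at 1 µM, against 33.1 and 40.7 CPM at 350 nM (0.85 ± 0.09). Among 34 genes of G2/M and mitosis, 4 rose and 4 fell, shares of 11.8% and 11.8%, against 9.97% and 11.6% of all genes tested. PLK1, a mitotic kinase, had 162 and 163 CPM at 1 µM, against 218 and 197 CPM at 350 nM (-0.35 ± 0.10), CDC20, an activator of mitotic exit, had 93.1 and 99.9 CPM at 1 µM, against 142 and 118 CPM at 350 nM (-0.42 ± 0.11), and AURKB had 31.3 and 31.7 CPM at 1 µM, against 25.1 and 20.97 CPM at 350 nM (0.44 ± 0.11). The mitotic list had leave-one-out counts of 2, 2, 2 and 2 higher and 0, 2, 2 and 3 lower, and 8 higher and 7 lower in the corrected fit. The test was not passed by PLK1 without 1 µM replicate 1 or 1 µM replicate 2 or 350 nM replicate 1 (-0.36 to -0.28, adjusted p 0.0679 to 0.123), CDC20 without 1 µM replicate 1 or 350 nM replicate 1 (-0.37 to -0.28, adjusted p 0.0852 to 0.135) and AURKB without 350 nM replicate 2 (0.32, adjusted p 0.0916).

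Most p53 targets and repair genes did not pass the test in the fit of all libraries, but more rose than fell. Of the tested p53 targets 23.3% rose and 6.67% fell, against 9.97% and 11.6% of all genes tested. Of 30 tested p53 targets 7 rose and 2 fell, with leave-one-out counts of 6, 6, 5 and 6 higher and 1, 1, 2 and 1 lower. GADD45A, which links damage to arrest, had 26.2 and 27.1 CPM at 1 µM, against 12.1 and 13.9 CPM at 350 nM, a log2 difference of 0.99 ± 0.10. PMAIP1, or NOXA, a killer protein of the BCL2 family, had 14.3 and 14.9 CPM at 1 µM, against 5.28 and 7.301 CPM at 350 nM (1.11 ± 0.17), and CDKN1A, the inhibitor p21, had 44.3 and 48.7 CPM at 1 µM, against 28.3 and 25.04 CPM at 350 nM (0.78 ± 0.11). The 1 µM libraries were above both 350 nM libraries for these 3 genes. MDM2, the ligase that removes p53, had 125 and 119 CPM at 1 µM, against 133 and 159 CPM at 350 nM (-0.26 ± 0.12, adjusted p 0.134). PLK2, a kinase of the stress response, was 1 of the 2 that fell, with 324 and 336 CPM at 1 µM, against 402 and 418 CPM at 350 nM (-0.31 ± 0.07). Among 36 genes of double-strand break repair and the Fanconi pathway, 7 rose and 3 fell, shares of 19.4% and 8.33%, against 9.97% and 11.6% of all genes tested, with leave-one-out counts of 5, 5, 3 and 8 higher and 2, 2, 2 and 2 lower, and 12 higher and 6 lower in the corrected fit. EXO1, a nuclease that resects ends, had 140.3 and 144 CPM at 1 µM, against 78.5 and 89.02 CPM at 350 nM (0.76 ± 0.10), and BRCA1 had 1622 and 1708 CPM at 1 µM, against 1197 and 1314 CPM at 350 nM (0.41 ± 0.10). TP53BP1, which protects ends from resection, had 90.4 and 87.9 CPM at 1 µM, against 119 and 113 CPM at 350 nM (-0.38 ± 0.06). In the list of BCL2 family members and death receptors, 5 of 25 rose and 1 fell, with leave-one-out counts of 3, 4, 2 and 5 higher and 0, 0, 0 and 1 lower, and 9 higher and 2 lower in the corrected fit. PMAIP1 was among those that rose, and so was BIRC3, an inhibitor of apoptosis, with 367 and 383 CPM at 1 µM, against 196 and 271 CPM at 350 nM (0.70 ± 0.17). Calls were lost for BRCA1 without 1 µM replicate 2 or 350 nM replicate 1 (0.34 to 0.37, adjusted p 0.0683 to 0.0708) and BIRC3 without 350 nM replicate 1 (0.47, adjusted p 0.109).

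Genes of antigen presentation rose. Of 18 tested members 11 rose and 0 fell, with a list median of 0.48. All 18 members had log2 differences above 0, but 1 of them, CD74, rested on 1 µM replicate 1 alone and was 0 without it. NLRC5, the activator of class I genes, had 29.1 and 28.4 CPM at 1 µM, against 18.8 and 15.8 CPM at 350 nM, a log2 difference of 0.71 ± 0.12 with an adjusted p of 2.04e-04. TAP1 and TAP2 form the pump that brings peptides to class I molecules, and TAP1 had 47.6 and 47.3 CPM at 1 µM, against 34.8 and 29.03 CPM at 350 nM (0.57 ± 0.10). TAP2 had 77.5 and 76.8 CPM at 1 µM, against 54.4 and 53.3 CPM at 350 nM (0.51 ± 0.08), and PSMB9, a subunit of the immunoproteasome, had 7.54 and 6.73 CPM at 1 µM, against 3.78 and 4.03 CPM at 350 nM (0.73 ± 0.13). In these 4 genes the 2 libraries at 1 µM were close to each other. HLA-B and B2M, which make up class I molecules, were higher in the library with lymphoid transcripts than in its replicate. HLA-B had 150.3 and 102 CPM at 1 µM, against 67.5 and 53.1 CPM at 350 nM (1.04 ± 0.14, and 0.76 without 1 µM replicate 1). B2M, the shared light chain, had 1316 and 1196 CPM at 1 µM, against 912 and 1011 CPM at 350 nM (0.39 ± 0.10, and 0.32 with an adjusted p of 0.0882 without that library). The list had leave-one-out counts of 6, 12, 9 and 9 higher, and its median without 1 µM replicate 1 was 0.35. Of the 4 compared libraries, only 1 µM replicate 1 held CD74, the class II invariant chain, with 6.94 and 0 CPM at 1 µM, against 0 and 0 CPM at 350 nM.

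Promoters of 2 of these genes are shown for the core of the interferon-stimulated response element, with the letters GAAANNGAAA on either strand. This core was found in 3.57% of all promoters and in 290 of 10352 tested genes with a promoter (2.80%). Among list members with a promoter in that set, 7 of 14 had it. Of the 7 with it 4 rose (B2M, TAP1, TAP2 and TAPBP), and of the 7 without it 3 rose. Leaving out libraries ended the calls of B2M without 1 µM replicate 1 or 350 nM replicate 1 (0.31 to 0.32, adjusted p 0.0714 to 0.0882) and TAPBP without 1 µM replicate 1 or 350 nM replicate 1 or 350 nM replicate 2 (0.23 to 0.31, adjusted p 0.0895 to 0.237). Capitals mark the fixed letters, which read TTTC where the element lies on the other strand, and the 2 matches overlap in each sequence.
B2M (chr15:44711267-44711566, plus strand): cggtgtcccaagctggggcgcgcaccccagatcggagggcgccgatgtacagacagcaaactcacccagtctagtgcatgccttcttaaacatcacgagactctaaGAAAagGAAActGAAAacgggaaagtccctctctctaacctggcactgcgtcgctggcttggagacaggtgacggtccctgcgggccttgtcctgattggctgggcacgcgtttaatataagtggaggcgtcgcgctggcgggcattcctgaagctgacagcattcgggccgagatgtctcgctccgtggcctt
TAP1 (chr6:32853655-32853954, minus strand): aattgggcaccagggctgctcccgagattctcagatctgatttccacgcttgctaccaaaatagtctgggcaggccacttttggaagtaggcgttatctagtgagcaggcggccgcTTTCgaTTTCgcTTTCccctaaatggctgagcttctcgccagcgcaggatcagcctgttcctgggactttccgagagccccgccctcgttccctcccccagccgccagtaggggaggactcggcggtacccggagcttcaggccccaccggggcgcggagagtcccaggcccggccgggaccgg

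Interferon-stimulated genes rose in part. Of 39 tested members 14 rose and 0 fell, with a median of 0.23, and leave-one-out counts of 10, 9, 9 and 9 higher, and 17 higher and 2 lower in the corrected fit. DDX58, or RIG-I, a sensor of viral RNA, had 39.7 and 44.3 CPM at 1 µM, against 24.7 and 26.4 CPM at 350 nM (0.69 ± 0.14). IFI6, which opposes apoptosis and viral replication, had 10.4 and 13.1 CPM at 1 µM, against 6.07 and 5.13 CPM at 350 nM (0.94 ± 0.17), and IRF1, a transcription factor of the response, had 47.8 and 51.2 CPM at 1 µM, against 35.7 and 31.2 CPM at 350 nM (0.56 ± 0.10). For each of them both libraries at 1 µM were above both at 350 nM. Among 14 sensors of cytosolic nucleic acids 5 rose and 1 fell, with leave-one-out counts of 2, 4, 5 and 1 higher and 1, 0, 1 and 0 lower, and 3 higher and 1 lower in the fit of both doses alone and 3 higher and 1 lower in the fit of the resistant libraries alone. IFI16, a DNA sensor, had 33.5 and 32.7 CPM at 1 µM, against 20.8 and 19.7 CPM at 350 nM (0.68 ± 0.11), and TMEM173, the adaptor STING, had 17.95 and 18.8 CPM at 1 µM, against 13.9 and 12.3 CPM at 350 nM (0.46 ± 0.13). The test was not passed by TMEM173 without 1 µM replicate 2 or 350 nM replicate 2 (0.38 to 0.43, adjusted p 0.0915 to 0.113) and MB21D1 without 1 µM replicate 1 or 350 nM replicate 2 (0.17 to 0.50, adjusted p 0.129 to 0.5696). MB21D1, or cGAS, had 1.14 and 0.232 CPM at 1 µM, against 0.1498 and 0.0442 CPM at 350 nM (0.57 ± 0.17, and 0.17 without 1 µM replicate 1).

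Some NF-kB target genes and immediate early genes rose. Of 21 NF-kB subunits and feedback targets 9 rose and 1 fell, with leave-one-out counts of 7, 7, 7 and 6 higher and 0, 0, 0 and 0 lower. ICAM1, an adhesion molecule, had 50.7 and 51.1 CPM at 1 µM, against 27.4 and 26.4 CPM at 350 nM (0.90 ± 0.13), and SOD2, the mitochondrial superoxide dismutase, had 647 and 667 CPM at 1 µM, against 362 and 457 CPM at 350 nM (0.69 ± 0.10). NFKB2 and RELB, subunits of the non-canonical branch, rose as well. NFKBIZ was the member that fell. No call remained for NFKBIZ without 1 µM replicate 1 or 1 µM replicate 2 or 350 nM replicate 1 or 350 nM replicate 2 (-0.37 to -0.29, adjusted p 0.0933 to 0.202). Of 25 immediate early and stress transcription factors 12 rose and 2 fell, with leave-one-out counts of 10, 10, 12 and 10 higher and 2, 1, 2 and 1 lower. EGR1 had 25.7 and 25.7 CPM at 1 µM, against 11.7 and 13.3 CPM at 350 nM (0.98 ± 0.09), JUN had 76.004 and 86.9 CPM at 1 µM, against 48.95 and 47.7 CPM at 350 nM (0.74 ± 0.09) and FOS had 9.21 and 10.4 CPM at 1 µM, against 5.24 and 4.78 CPM at 350 nM (0.84 ± 0.14). These factors are among the first genes that cells turn on after a signal. DUSP4, a phosphatase that switches off MAP kinases, had 111 and 110.5 CPM at 1 µM, against 174 and 172 CPM at 350 nM (-0.64 ± 0.07). Among 20 chemokines and cytokines 5 rose and 3 fell, with leave-one-out counts of 4, 4, 3 and 5 higher and 2, 2, 3 and 1 lower, and 8 higher and 3 lower in the fit of the resistant libraries alone. IL32 had 6.44 and 5.95 CPM at 1 µM, against 2.697 and 2.52 CPM at 350 nM (0.99 ± 0.18), and CCL2, which attracts monocytes, had 3.44 and 3.21 CPM at 1 µM, against 7.79 and 8.67 CPM at 350 nM (-1.09 ± 0.19).

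Most components of JAK-STAT signalling did not pass the test, and its target genes moved both ways, with more that rose than fell. Of 30 tested kinases, STAT factors, cytokines and receptors, 4 rose and 1 fell, shares of 13.3% and 3.33%, with leave-one-out counts of 2, 3, 1 and 5 higher and 0, 1, 1 and 1 lower, and 8 higher and 2 lower in the corrected fit. Over all genes tested, the shares that rose and fell were 9.97% and 11.6%. IL6R, the ligand-binding interleukin-6 receptor, had 77.8 and 75.3 CPM at 1 µM, against 50.5 and 51.3 CPM at 350 nM (0.58 ± 0.08). IL6 itself had 5.96 and 5.18 CPM at 1 µM, against 3.11 and 4.07 CPM at 350 nM (0.52 ± 0.14, and 0.44 with an adjusted p of 0.103 without 1 µM replicate 1). JAK1 had 165 and 169 CPM at 1 µM, against 163 and 175 CPM at 350 nM (-0.01 ± 0.08, adjusted p 0.948), JAK2 had 34.99 and 36.4 CPM at 1 µM, against 30.5 and 38.3 CPM at 350 nM (0.06 ± 0.13, adjusted p 0.7904) and STAT3 had 214 and 214 CPM at 1 µM, against 207 and 201 CPM at 350 nM (0.07 ± 0.07, adjusted p 0.558). STAT5B was the member that fell, with 21.8 and 23.8 CPM at 1 µM, against 29.7 and 28.8 CPM at 350 nM (-0.35 ± 0.08, and -0.29 with an adjusted p of 0.0705 without 1 µM replicate 1). Among 35 SOCS feedback and STAT3 target genes 11 rose and 4 fell, with leave-one-out counts of 8, 8, 8 and 10 higher and 3, 2, 3 and 3 lower, and 15 higher and 9 lower in the corrected fit. In the fit of all libraries 31.4% of these target genes rose and 11.4% fell. The acute phase proteins SAA1 and SAA2 rose, SAA1 with 63.6 and 63.6 CPM at 1 µM, against 34.4 and 30.1 CPM at 350 nM (0.96 ± 0.15). The other fibrinogen genes fell with FGB. FGG had 2454 and 2438 CPM at 1 µM, against 4179 and 4647 CPM at 350 nM (-0.85 ± 0.11) while FGA had 4.04 and 3.52 CPM at 1 µM, against 6.48 and 8.23 CPM at 350 nM (-0.80 ± 0.19). Leaving out libraries ended the calls of FGA without 1 µM replicate 2 or 350 nM replicate 2 (-0.72 to -0.65, adjusted p 0.0522 to 0.0679) and IL6 without 1 µM replicate 1 or 350 nM replicate 1 (0.37 to 0.44, adjusted p 0.103 to 0.129). PIM1, a kinase and STAT target, had 10.4 and 10.4 CPM at 1 µM, against 5.51 and 6.95 CPM at 350 nM (0.67 ± 0.12). SOCS3, the feedback inhibitor, had 7.04 and 7.81 CPM at 1 µM, against 5.39 and 4.87 CPM at 350 nM (0.46 ± 0.18, adjusted p 0.0655) and did not pass, except in the fit corrected for GC content and length and in 2 smaller fits.

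**Figure D4:**
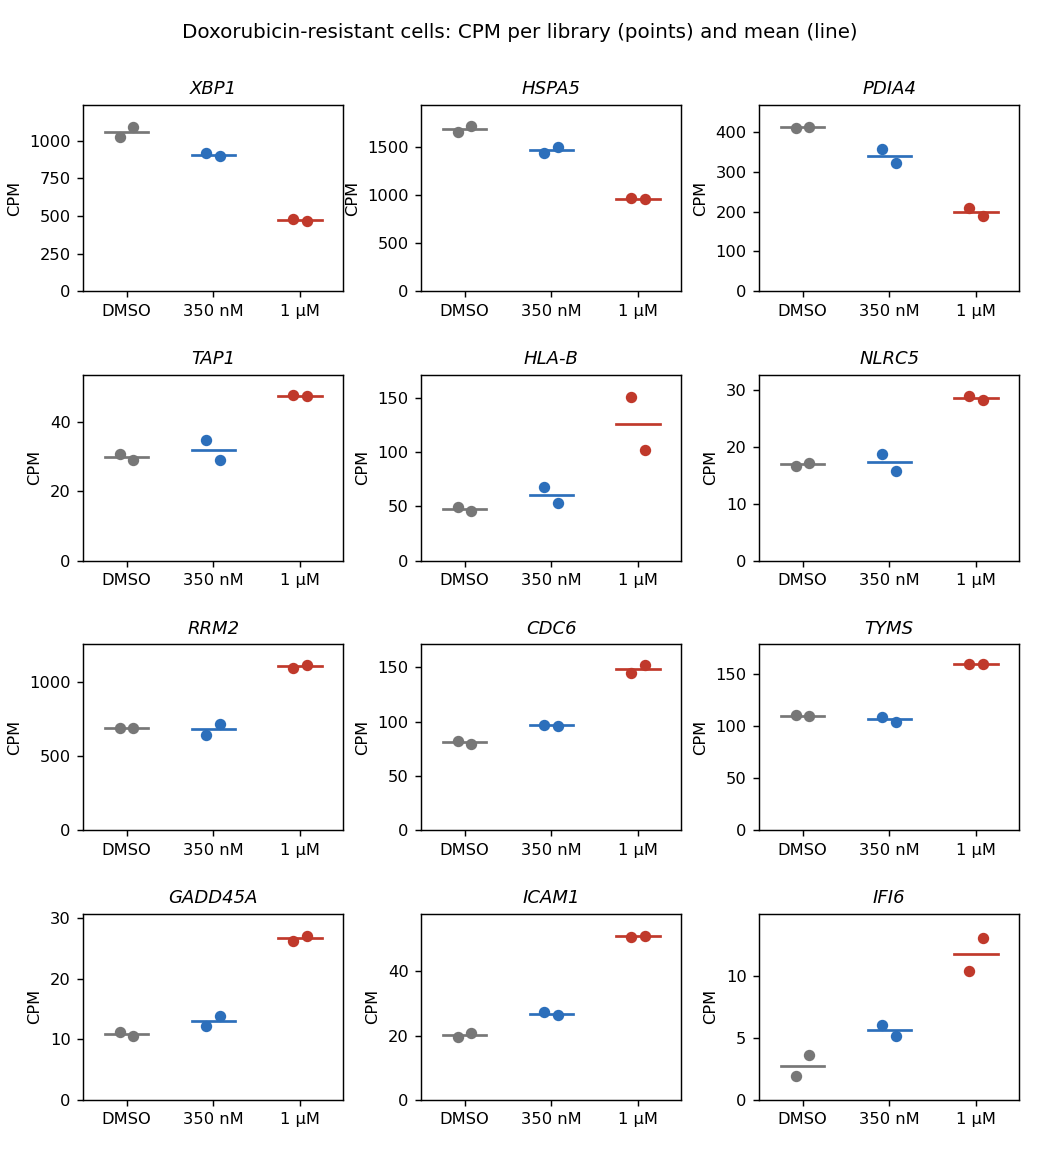
CPM per library (points) and mean (lines) of 12 genes in resistant cells in DMSO, at 350 nM and at 1 µM doxorubicin, with each axis starting at 0. XBP1, HSPA5 and PDIA4 are lowest at 1 µM, and the other 9 genes are highest there.

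Lipid synthesis and luminal genes fell where they changed, with few exceptions. Of 24 genes of cholesterol synthesis and sterol homeostasis 6 fell and 1 rose, with leave-one-out counts of 5, 4, 5 and 6 lower and 0, 1, 0 and 1 higher, and 12 lower and 1 higher in the corrected fit. Of 17 genes of fatty acid synthesis 5 fell and 1 rose, with leave-one-out counts of 5, 3, 4 and 4 lower and 1, 1, 2 and 1 higher. FASN, fatty acid synthase, had 704 and 723 CPM at 1 µM, against 1359.8 and 1142 CPM at 350 nM (-0.80 ± 0.15), SCD, the stearoyl desaturase, had 852 and 855 CPM at 1 µM, against 1215 and 1163 CPM at 350 nM (-0.48 ± 0.10), and FDFT1, squalene synthase, had 121 and 119 CPM at 1 µM, against 193 and 179 CPM at 350 nM (-0.62 ± 0.09). ACLY, which makes acetyl-CoA from citrate, was the fatty acid gene that rose, with 340.05 and 345 CPM at 1 µM, against 278 and 276 CPM at 350 nM (0.31 ± 0.07). Of 23 luminal epithelial genes 8 fell and 1 rose, with leave-one-out counts of 6, 6, 6 and 9 lower and 1, 1, 1 and 1 higher, and 13 lower and 1 higher in the corrected fit. FOXA1, a pioneer factor of luminal cells, had 161 and 166 CPM at 1 µM, against 238 and 293 CPM at 350 nM (-0.69 ± 0.10). AGR2, a disulfide isomerase of secretory cells, had 2947 and 2865 CPM at 1 µM, against 4411 and 4765 CPM at 350 nM (-0.66 ± 0.09), and the secretoglobin SCGB2A2, or mammaglobin, had 716 and 698 CPM at 1 µM, against 1326 and 1245 CPM at 350 nM (-0.86 ± 0.13). GATA3, another luminal factor, had 62.4 and 63.1 CPM at 1 µM, against 62.6 and 61.4 CPM at 350 nM (0.02 ± 0.09, adjusted p 0.921). CDH1, E-cadherin, was the luminal gene that rose, with 384 and 394 CPM at 1 µM, against 313 and 318 CPM at 350 nM (0.30 ± 0.06).

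Keratins and genes of the cornified layer split. Of 18 tested basal and stress keratins and myoepithelial genes 6 rose and 6 fell, with leave-one-out counts of 5, 4, 6 and 4 higher and 5, 6, 6 and 5 lower. KRT23 had 38.3 and 43.4 CPM at 1 µM, against 17.4 and 19.6 CPM at 350 nM (1.103 ± 0.11) and LAMB3, a laminin chain of the basement membrane, had 66.3 and 67.3 CPM at 1 µM, against 44.05 and 39.4 CPM at 350 nM (0.67 ± 0.11). KRT81, a hair keratin, had 89.7 and 90.6 CPM at 1 µM, against 217 and 174 CPM at 350 nM (-1.10 ± 0.13) and KRT6A, a keratin of wounded skin, had 57.4 and 55.2 CPM at 1 µM, against 95.2 and 98.5 CPM at 350 nM (-0.77 ± 0.15). The copies of KRT6 are near-identical, so their split is uncertain. Of 18 cornified envelope genes 7 rose and 3 fell, with leave-one-out counts of 5, 5, 7 and 5 higher and 2, 3, 2 and 3 lower. S100A8 and S100A9 form the secreted complex calprotectin, and S100A8 had 761 and 746 CPM at 1 µM, against 534 and 437 CPM at 350 nM (0.64 ± 0.11) while S100A9 had 1878 and 1916 CPM at 1 µM, against 1443 and 1301 CPM at 350 nM (0.47 ± 0.10). PI3, the elastase inhibitor elafin, had 35.9 and 35.8 CPM at 1 µM, against 20.3 and 21.5 CPM at 350 nM (0.75 ± 0.11). CASP14, the caspase of keratinocyte cornification, had 38.2 and 38.3 CPM at 1 µM, against 64.5 and 63.01 CPM at 350 nM (-0.72 ± 0.10). Of 22 tested mesenchymal and matrix genes 13.6% fell and 4.55% rose, against 11.6% and 9.97% of all genes tested. FN1, fibronectin, had 14.2 and 15.3 CPM at 1 µM, against 31.2 and 31.1 CPM at 350 nM (-1.03 ± 0.12) and was 1 of 3 mesenchymal genes of 22 that fell, while 1 rose, with leave-one-out counts of 2, 2, 2 and 3 lower and 1, 0, 0 and 1 higher, and 5 lower and 1 higher in the corrected fit.

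In the remaining lists few members passed, or the count turned on 1 library or on the fit. Of 28 lysosome and autophagy genes 6 rose and 0 fell, with leave-one-out counts of 4, 4, 6 and 3 higher, and 8 higher and 3 lower in the corrected fit and 7 higher and 2 lower in the fit of the resistant libraries alone, and MAP1LC3B, which coats autophagosomes, had 230.2 and 231 CPM at 1 µM, against 133 and 153 CPM at 350 nM (0.69 ± 0.10). Among 29 tested genes of hypoxia and glycolysis, 5 were lower and 0 higher, with leave-one-out counts of 5, 4, 4 and 5 lower, and 13 lower and 2 higher in the corrected fit, and NDRG1 had 314 and 319.7 CPM at 1 µM, against 509 and 476 CPM at 350 nM (-0.63 ± 0.08). Of 76 cytosolic ribosomal proteins 14 fell and 0 rose, with a median of -0.18. The list had leave-one-out counts of 6, 2, 2 and 22 lower, and 42 lower in the corrected fit and 4 lower in the fit of both doses alone, so its count turned on single libraries and on the fit. Among 36 proteasome genes 1 rose and 2 fell, shares of 2.78% and 5.56%, with 13 lower and 1 higher in the corrected fit. Among 36 nuclear genes of the respiratory chain 1 rose and 3 fell, shares of 2.78% and 8.33%, with 5 lower and 4 higher in the corrected fit. In the fit of all libraries, limma called 0 of the 13 mitochondrially encoded genes and 0 had an unadjusted p under 0.05, with a median of 0.35. It called 3 of them higher in the fit of both doses alone and 2 in the fit of the resistant libraries alone. Their summed level was 12416 and 11099 CPM at 1 µM, against 7813 and 11068 CPM at 350 nM. The first 350 nM library was thus the low one. In the other lists, ERBB4, a receptor of neuregulins, had 4.89 and 4.75 CPM at 1 µM, against 9.701 and 9.65 CPM at 350 nM (-0.87 ± 0.11), and HBEGF, a ligand of the EGF receptor, had 27.5 and 31.2 CPM at 1 µM, against 16.9 and 16.9 CPM at 350 nM (0.76 ± 0.09). INHBA, a subunit of activin among the senescence genes, had 9.43 and 10.2 CPM at 1 µM, against 4.72 and 5.84 CPM at 350 nM (0.79 ± 0.16). Of 17 tested senescence genes 5 rose and 3 fell, shares of 29.4% and 17.6%. Of 12 tested ERBB receptors and EGF-family ligands 2 rose and 3 fell (16.7% and 25%). Of 8 tested genes of the aryl hydrocarbon receptor pathway 3 rose and 2 fell (37.5% and 25%). Over all genes tested 9.97% rose and 11.6% fell.

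Long genes were lower at 1 µM more often than short ones. In the fifth of tested genes with the longest gene bodies, with a median of 162786 bases, 21.3% fell and 6.87% rose, with a median log2 difference of -0.10. In the fifth with the shortest, with a median of 5461 bases, 9.13% fell and 11.7% rose, with a median of 0.04. Between the 2 libraries at 350 nM the longest genes also differed, by a median of 0.07 (replicate 2 minus replicate 1), and the shortest by -0.14. Between the 2 libraries at 1 µM these medians were 0.02 and -0.01. The 350 nM libraries also lay apart by transcript GC content, with a Spearman correlation across genes of -0.69 between GC content and the difference of replicate 2 from replicate 1, against -0.02 in the 1 µM pair. Genes are not independent replicates, and the part of this difference in the results was not tested. The fit given with the alternatives is corrected for GC content and transcript length, but not for the length of the gene body.

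The lower dose alone moved far fewer genes. Against DMSO, limma called 486 genes at 350 nM, 3.81% of those tested (304 higher, 2.39%, and 182 lower, 1.43%), and 4977 genes at 1 µM, 39.1% of those tested (2438 higher, 19.1%, and 2539 lower, 19.9%). These comparisons share the DMSO libraries with each other and the dosed libraries with the comparison of the doses, so their values are given only side by side. XBP1 had 1024 and 1092 CPM in DMSO, 916 and 899.6 CPM at 350 nM and 477 and 465 CPM at 1 µM. HSPA5 had 1665 and 1725 CPM in DMSO, 1446 and 1509 CPM at 350 nM and 975 and 958 CPM at 1 µM. These 2 genes differed by -0.22 ± 0.06 and -0.20 ± 0.07 on the log2 scale between 350 nM and DMSO, with adjusted p of 0.038995 and 0.121. CYP1A1 had 13.9 and 9.65 CPM in DMSO, 33.6 and 30.4 CPM at 350 nM and 95.9 and 98.6 CPM at 1 µM, and it had risen at 350 nM too (1.39 ± 0.14 on the log2 scale). HOPX had 3.85 and 3.96 CPM in DMSO, 10.9 and 10.5 CPM at 350 nM and 25.4 and 27.3 CPM at 1 µM and KRT23 had 9.64 and 10.04 CPM in DMSO, 17.4 and 19.6 CPM at 350 nM and 38.3 and 43.4 CPM at 1 µM. MT1X fell at both doses, with 279 and 263 CPM in DMSO, 147 and 119.5 CPM at 350 nM and 53.6 and 55.5 CPM at 1 µM. MUC5B had 139 and 204 CPM in DMSO, 173 and 110.3 CPM at 350 nM and 10.3 and 12.02 CPM at 1 µM, and FGB had 862 and 1019 CPM in DMSO, 886 and 934 CPM at 350 nM and 269 and 263 CPM at 1 µM. The 350 nM and DMSO libraries overlapped for these 2 genes. RRM2 had 693 and 686 CPM in DMSO, 643 and 719 CPM at 350 nM and 1093 and 1116 CPM at 1 µM, and EGR1 had 20.2 and 19.1 CPM in DMSO, 11.7 and 13.3 CPM at 350 nM and 25.7 and 25.7 CPM at 1 µM. EGR1 was thus lowest at 350 nM (-0.62 ± 0.09 against DMSO, adjusted p 2.59e-04). Of the interferon-stimulated genes 11 rose between DMSO and 350 nM, and of antigen presentation genes 1 did. IFI6 had 1.904 and 3.58 CPM in DMSO, 6.07 and 5.13 CPM at 350 nM and 10.4 and 13.1 CPM at 1 µM.

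Parental cells moved more between their own doses, 1 µM and 65 nM, than resistant cells between 1 µM and 350 nM. limma called 9419 genes in parental cells (73.9%), 4305 higher (33.8%) and 5114 lower (40.1%), and the median size of the log2 difference over all tested genes was 0.54, against 0.16 in resistant cells. The lower doses differ between the lines, 350 nM and 65 nM, so the steps are not matched in dose and the lines' responses to an equal step were not measured. The difference between the 2 steps passed the test for 7345 genes (57.6%), with the larger step in the parental line for 6927 of them and in the resistant line for 418. Poly-A transcripts of histone cluster genes had a median of 0.05 in resistant cells and 1.96 in parental cells. Of 21 members 1 was higher and 3 lower in resistant cells, and 20 were higher and 0 lower in parental cells. In the fit of the resistant libraries alone 3 were higher and 3 lower. Their summed level in resistant cells was 206 and 203 CPM at 1 µM, against 266 and 253 CPM at 350 nM. The difference between the steps passed for 19 of these 21. Antigen presentation genes had medians of 0.48 and 1.18 in resistant and parental cells, and the difference passed for 10 of 18. Fatty acid synthesis genes had medians of -0.07 and -0.98, and the difference passed for 16 of 17. Cornified envelope genes had medians of 0.29 and -1.31, and the difference passed for 15 of 18. Genes of the endoplasmic reticulum list had medians of -0.33 and -0.39, and the difference passed for 12 of 24.

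**Figure D5:**
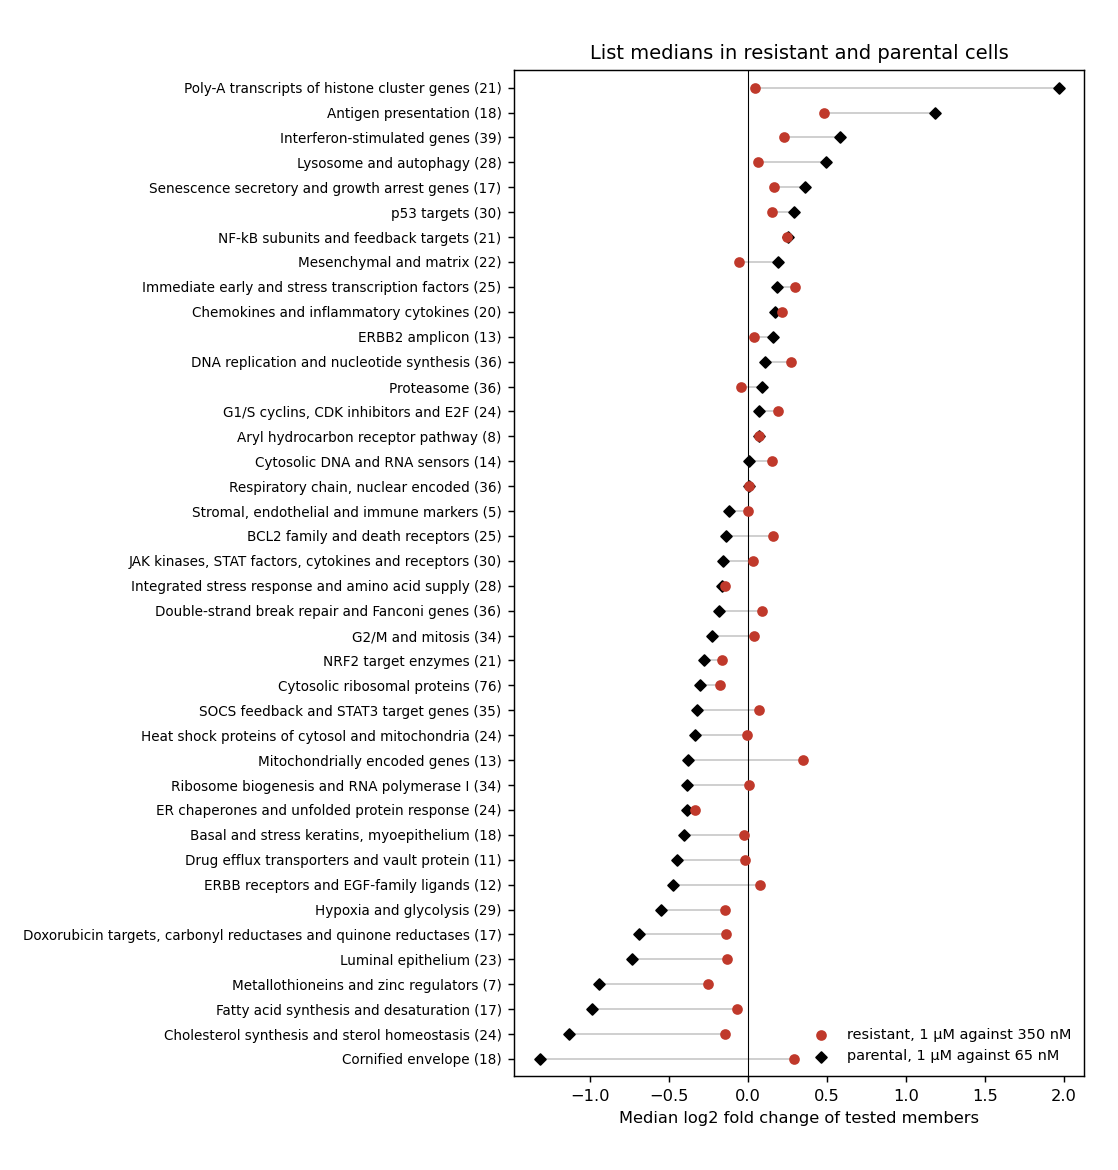
Median log2 fold change of the tested members of 40 gene lists, for resistant cells at 1 µM against 350 nM (circles) and parental cells at 1 µM against 65 nM doxorubicin (diamonds), with the number of tested members in brackets. Histone cluster transcripts and the cornified envelope show the widest gaps between the lines.

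Single genes show the contrast. ATF3 had 377 and 312 CPM at 1 µM, against 18.4 and 19.8 CPM at 65 nM in parental cells, and its difference between the steps was -2.90 ± 0.17 on the log2 scale, resistant minus parental. MT1X had 12.7 and 10.4 CPM at 1 µM, against 464 and 448 CPM at 65 nM in parental cells, with a difference of 3.92 ± 0.16, and FGB had 61.6 and 45.4 CPM at 1 µM, against 1475 and 1589.9 CPM at 65 nM in parental cells, with a difference of 3.06 ± 0.16. These genes moved the same way in both lines and further in parental cells. ENAM had 5.69 and 4.24 CPM at 1 µM, against 3.595 and 2.79 CPM at 65 nM in parental cells and ATP6V1C2 had 13.3 and 18.6 CPM at 1 µM, against 27.8 and 27.3 CPM at 65 nM in parental cells, and both moved the other way in resistant cells, with differences of -2.58 ± 0.23 and 2.09 ± 0.16. In all, 237 genes were called in both lines in opposite directions with a called difference, 169 of them higher in resistant cells and lower in parental cells. KRT4, a keratin of moist epithelia, had 33.8 and 34.4 CPM at 1 µM, against 20.2 and 17.03 CPM at 350 nM in resistant cells (0.84 ± 0.13) and 11.1 and 9.51 CPM at 1 µM, against 34.2 and 41.8 CPM at 65 nM in parental cells (-1.78 ± 0.13). KLK5, a protease of shedding skin cells, had 16.6 and 16.1 CPM at 1 µM, against 9.701 and 8.54 CPM at 350 nM in resistant cells (0.78 ± 0.14) and 1.59 and 1.14 CPM at 1 µM, against 6.45 and 8.56 CPM at 65 nM in parental cells (-1.84 ± 0.14). ALDH3B2, an aldehyde dehydrogenase, had 26.4 and 28.5 CPM at 1 µM, against 15.99 and 13.2 CPM at 350 nM in resistant cells (0.87 ± 0.14) and 5.11 and 4.3997 CPM at 1 µM, against 17.5 and 18.8 CPM at 65 nM in parental cells (-1.74 ± 0.14).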

How the data were processed

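Poly-A RNA of 30 libraries of SUM190 cells was sequenced. The submitters' processing notes name STAR 2.5.1b, edgeR and the build GRCh37 (hg19), with the read counter not given in the sources used here. In the deposited table the authors give log2 values of CPM + 1 on TMM-scaled libraries, per the file headers. Within a tolerance of 0.01, every value was a whole number of reads of its library, which gave 18443749 to 32669995 reads per library.

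A limma 3.58.1 means model of 15 groups (R 4.3.3, trended and robust moderation, 15 residual degrees of freedom) was fitted to the deposited log2 values of 12743 genes with at least 1 CPM in at least 2 libraries. Each gene has 1 spread for all 15 groups. Tests were two-sided with Benjamini-Hochberg adjustment within a comparison and a threshold of 0.05. Comparisons were 1 µM against 350 nM, either dose against DMSO, 1 µM against 65 nM in parental cells, and the difference of the steps. The genes named belong to 40 lists (930 tested genes), or are the 15 that rose and the 15 that fell furthest of the called genes that averaged at least 5 CPM in a group and did not overlap. Members and lists were chosen with earlier results of these data known, and lymphoid markers and genes of opposite direction after their values were seen. Lists are described by counts and medians, with no test. The alternatives tried were adding 0.25 CPM in place of 1, no filter, median-of-ratios scaling, a replicate block, correction for GC content and length (GENCODE v29 transcripts, 99.4% of genes), smaller fits, voom on recovered reads, no trend or robust moderation, and leaving out libraries, where the lone library is assumed to vary like the other groups. Tables used pandas 2.3.3 in Python 3.11.15. The fit was tested on simulated data.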

Additional observations from a re-analysis of the deposited data

Results flagged for a closer look

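The step between the doses differed between resistant and parental cells for 7345 genes by a test of the difference itself. The lower doses were 350 nM and 65 nM, so the steps are not matched in dose and cell line and dose cannot be told apart. Differences below are log2 values, resistant minus parental. Among the genes that fell furthest in resistant cells, the difference was 3.92 for MT1X, 3.65 for NOX5, 3.49 for LPCAT1, 3.06 for FGB, 1.90 for SLC19A1, 1.40 for SERHL2, 1.39 for UGT2B28, 1.23 for UGT2B11 and 1.15 for FCGBP, each of which fell further in parental cells. It was -2.58 for ENAM, -1.38 for MUC19, -1.19 for HEPACAM2 and -0.71 for PCDH20. Among the genes that rose furthest in resistant cells it was -2.90 for ATF3, -2.35 for PPP1R15A, -2.05 for GPNMB, -1.57 for ARRDC4, -1.44 for NOV, -0.999 for CYP1A1, -0.96 for HDAC9, -0.80 for GBP1 and -0.66 for COL16A1, each of which rose further in parental cells. It was 2.09 for ATP6V1C2, 0.85 for TGM1 and 0.82 for HOPX. Of the genes called in opposite directions, those named for the largest smaller step, by a rule chosen after the values were seen, were KRT4 at 2.63, KLK5 at 2.62, ALDH3B2 at 2.61, RP1 at 2.14, S100A7 at 2.05, PLCXD3 at 1.9999, AIM1L at 1.86 and SH3TC2 at 1.59. All 8 rose in resistant cells and fell in parental cells in the fit of all libraries. The call in resistant cells was lost for S100A7 without 1 µM replicate 1, 1 µM replicate 2 or 350 nM replicate 2 (0.60 to 0.87, adjusted p 0.0686 to 0.186), in the fit of the resistant libraries alone and with 0.25 CPM added, and for SH3TC2 without 350 nM replicate 2 (0.52, adjusted p 0.0972).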

How the results depend on the processing

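Of 2385 values of 159 named genes over 15 alternatives, 2282 kept direction and side of the threshold, 78 fell short of it, 7 passed it and 18 changed sign. All that changed sign were uncalled genes. Leaving out 1 of the 4 libraries, log2 differences ran from -0.044 to 0.070 for ABCC1, 0 to 2.99 for CD74, -0.11 to 0.065 for EPCAM, -0.12 to 0.058 for ERBB2, -0.061 to 0.040 for JAK1, -0.0996 to 0.219 for JAK2 and -0.161 to 0.0786 for TOP2A. Without both libraries with lymphoid transcripts, a fit added after seeing the data, CD74 was 0, EPCAM 0.00489 and JAK1 0.00686. GATA3 was -0.033 and JAK1 0.00293 with the GC and length correction, with or without the replicate block, and JAK1 was 0.0015 with median-of-ratios scaling. SOCS3 and CANX passed the threshold with that correction, SOCS3 also in both smaller fits, and CD74 without 1 µM replicate 2. Called genes numbered 4929 (2211 higher, 2718 lower) with the GC and length correction and 4920 (2216 and 2704) with the replicate block added, and the cause was not tested. Leaving out 1 of the 4 compared libraries gave 1542 to 2047 called genes, 699 to 910 higher and 811 to 1137 lower. The added fit, without 1 µM replicate 1 and the second paclitaxel-resistant library at the high paclitaxel dose, gave 1576 (721 and 855). The replicate block alone gave 2701. The labels do not say whether same-numbered libraries of the 2 doses were paired. The deviations of same-numbered libraries correlated at 0.00353. This value cannot decide pairing, because the replicates at the lower dose also differed with GC content. The Spearman correlation of the replicate difference with GC content was -0.69 at the lower dose and -0.02 at 1 µM. Leaving out 1 parental library gave 1214 to 1434 higher and 1435 to 1697 lower genes. The other alternatives gave 2208 to 3095 called genes, and all alternatives for the difference between the lines gave 6659 to 8665. Of 600 list medians, 60 moved by more than the spread between replicates. Each of the 4 compared libraries held at least 23656973 reads, and each dose had 2 libraries.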

Other observations

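Some of the lymphoid genes of 1 µM replicate 1 were also found in 1 other library of the series, the second paclitaxel-resistant library at the high paclitaxel dose. There the 23 markers summed to 46.1 CPM, against 4.84 CPM in its replicate and 1.57 to 16.3 CPM over the 28 libraries other than these 2. IGJ had 15.6 CPM, IRF4 10.6 CPM and PRDM1 5.20 CPM in that library, against 1.80 CPM for PRDM1 in 1 µM replicate 1. It held 56 genes more than 4-fold above its replicate and 0 below. CD38 had 13.9 CPM in 1 µM replicate 1 of the resistant cells and 0.722 CPM in the paclitaxel-resistant library, and CD180 had 5.43 and 0.0380 CPM in these 2 libraries, so the genes did not keep 1 ratio between them.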
